A study of Rattus norvegicus with 12 samples.

Results

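Caskin1, Plcd4, Cntn4, Acp3, Limk1 and Ifitm10 are 6 genes whose signals were far lower in rat dorsal root ganglia after nerve ligation than after sham surgery. They were selected on these measured falls, which were large in both rat lines or in one line, by a rule without a stated threshold, and are 6 of the 10411 genes named on the array. Each was read by 1 of the 15923 probe sets, and none of these probe sets was shared with another gene. Because the falls chose the genes, every difference between ligated and sham ganglia, and its difference between the lines, is given here as a description without a test.

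RNA came from whole ganglia at L4/L5, which hold the cell bodies of sensory neurons with glia and other cells. All animals were adult male Sprague Dawley rats of 180 to 300 g, from either of the genetic sub-lines named High Pain (HP) and Low Pain (LP), with no transgene or deleted allele named. In the groups HP SNL and LP SNL the L4 and L5 spinal nerves had been ligated (spinal nerve ligation, SNL, a model of neuropathic pain) 3 days before. HP sham and LP sham animals had surgery that left the nerve undamaged, with no time after surgery given in the labels. Each of the 4 groups had 3 Affymetrix arrays. The labels do not say whether replicates were separate animals, and the spread that a p-value rests on may therefore be technical only. In whole ganglia, fewer cells of a type and less RNA per cell cannot be told apart.

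The 6 genes encode proteins of different kinds. Caskin1 is a scaffold that binds the synaptic kinase CASK, and contactin 4, the product of Cntn4, is an adhesion molecule of the axon surface anchored by a lipid. Plcd4 encodes a delta-type phospholipase C, which cleaves a membrane phosphoinositide into the messengers inositol trisphosphate and diacylglycerol. Acp3 encodes prostatic acid phosphatase, known in sensory ganglia as fluoride-resistant acid phosphatase, a histochemical mark of small non-peptidergic nociceptors that dephosphorylates AMP to adenosine. Limk1 encodes LIM kinase 1, which phosphorylates cofilin and so slows the severing of actin filaments. Ifitm10 belongs to the family of interferon-induced transmembrane proteins.

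The genes lie on different chromosomes of the rat assembly GRCr8. Caskin1 lies on chromosome 10 (chr10:14016780-14037927), Cntn4 on chromosome 4 (chr4:140180696-141177771), Plcd4 on chromosome 9 (chr9:83564616-83613742), Acp3 on chromosome 8 (chr8:113784372-113833033), Limk1 on chromosome 12 (chr12:27663177-27697085) and Ifitm10 on chromosome 1 (chr1:206936979-206954594). Of the 6 genes 4 had promoter windows in the RefSeq table of GRCr8, each with 250 bases before and 50 bases from a transcript start: Plcd4, Cntn4, Limk1 and Ifitm10. The windows of these genes, which were all lower after ligation than after sham surgery, are shown 5′ to 3′ on the gene's strand to set their composition side by side. Capitals mark matches, on either strand, to AP-1 (TGANTCA), CRE (TGACGTCA), the shorter CRE core (TGACG, which also lies within the CRE), the GC box (GGGCGG), the CCAAT box (CCAAT) and the TATA box (TATAAA).
Plcd4, chr9:83566014-83566313, plus strand: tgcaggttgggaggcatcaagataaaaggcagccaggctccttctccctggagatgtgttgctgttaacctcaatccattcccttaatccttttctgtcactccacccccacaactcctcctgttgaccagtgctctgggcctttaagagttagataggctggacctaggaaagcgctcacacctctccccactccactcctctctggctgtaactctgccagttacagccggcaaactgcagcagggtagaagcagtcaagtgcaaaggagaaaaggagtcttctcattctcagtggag
Cntn4, chr4:140180571-140180870, plus strand: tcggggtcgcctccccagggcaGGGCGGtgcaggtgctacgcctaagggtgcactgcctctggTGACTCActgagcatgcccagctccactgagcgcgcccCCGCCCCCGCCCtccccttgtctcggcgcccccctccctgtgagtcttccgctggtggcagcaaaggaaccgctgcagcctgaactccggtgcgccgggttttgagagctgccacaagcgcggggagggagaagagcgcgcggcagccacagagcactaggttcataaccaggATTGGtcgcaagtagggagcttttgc
Limk1, chr12:27662927-27663226, plus strand: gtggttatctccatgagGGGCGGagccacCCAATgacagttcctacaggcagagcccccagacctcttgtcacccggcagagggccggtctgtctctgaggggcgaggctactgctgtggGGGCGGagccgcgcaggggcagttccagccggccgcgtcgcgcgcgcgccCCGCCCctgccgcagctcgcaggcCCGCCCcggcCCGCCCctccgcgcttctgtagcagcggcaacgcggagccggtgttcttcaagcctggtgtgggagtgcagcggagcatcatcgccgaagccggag
Ifitm10, chr1:206953274-206953573, minus strand: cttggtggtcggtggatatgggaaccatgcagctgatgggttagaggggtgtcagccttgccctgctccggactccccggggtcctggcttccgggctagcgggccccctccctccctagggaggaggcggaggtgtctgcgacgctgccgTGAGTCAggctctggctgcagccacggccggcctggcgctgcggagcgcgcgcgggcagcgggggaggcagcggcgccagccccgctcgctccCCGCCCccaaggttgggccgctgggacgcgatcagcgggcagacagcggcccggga

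The windows of Cntn4, Limk1 and Ifitm10 were rich in G and C (66.7%, 71.3% and 73.7%) and held 21, 31 and 29 CpG dinucleotides, against medians of 51.7% and 7 over all 33469 windows of the table. The Plcd4 window had 52.0% G and C and 2 CpG, and none of the 6 motifs was found in its letters. Its transcript start, at 83566264, lies inside the gene, which begins at 83564616, so the outermost start of Plcd4 was not searched. An AP-1 match stood at position -187 from the start of Cntn4 and at -99 in Ifitm10, and 7.33% of all windows held such a match. GC boxes numbered 3 in Cntn4, 5 in Limk1 and 1 in Ifitm10 (33.1% of all windows held at least 1), and Cntn4 and Limk1 had 1 CCAAT box each (37.5% of all windows). No CRE, CRE core or TATA box was found in these 4 windows (1.83%, 21.2% and 14.2% of all windows). The Ifitm10 window shown is the third of 3 in the table, and the other 2 held only CCAAT matches, with 53% and 50% G and C and 1 and 3 CpG. The start of the window shown, at 206953323, lies inside the gene, whereas that of the first window, at 206954594, is its outer end. The composition and motifs given for Ifitm10 therefore depend on the window shown.

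The deposited signals are on a linear scale without detection calls, so each signal is set here against the lowest values of its own array. The 5th percentile of all probe sets lay between 12.4 and 20.8 on the 12 arrays, the 10th between 22.92 and 41.9, and the median between 278.4 and 313.2. Near the lowest values the size of a difference is uncertain. Log2 differences were taken after adding 1 to each signal and are given with the standard error of a limma fit over all genes. For each gene the 4 groups shared 1 estimate of the spread, so a standard error also reflects arrays outside the comparison. Adding 1 makes the differences of dim signals slightly smaller. Whether the differences near the lowest values are too large or too small is not known. Group means are given ± SD with n = 3, and the number of arrays limits the precision.

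Caskin1 was near the lowest signals of the array after ligation in both lines. Its signals were 296.4, 332.1 and 248.4 on HP sham arrays 1, 2 and 3, and 19.9, 12.1 and 14.7 on the HP SNL arrays. In LP they were 101.8, 142.1 and 166.9 after sham surgery and 13.7, 14.8 and 12.1 after ligation. Every ligated array lay far below every sham array, and the 3 LP sham arrays all lay below the 3 HP sham arrays. The mean was 292 ± 42.0 after sham surgery and 15.6 ± 3.97 after ligation in HP, a ratio of 18.8 and a log2 difference of -4.16 ± 0.21. In LP it was 137 ± 32.9 after sham surgery and 13.5 ± 1.36 after ligation, a ratio of 10.1 and a log2 difference of -3.22 ± 0.21. Caskin1 stood at the 44.2 to 55.7 percentile of the HP sham arrays and the 25.3 to 30.7 percentile of the LP sham arrays, but between the 2.4 and 6.4 percentile on the ligated arrays of both lines. On all 3 LP SNL arrays and on 1 HP SNL array its signal was at or under the 5th percentile. With signals raised to at least the 10th percentile of their array, the log2 difference was -3.28 in HP and -1.85 in LP.

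Cntn4 was dim in sham ganglia already and was lowest after ligation in HP. HP sham arrays 1, 2 and 3 gave 115.4, 126.0 and 145.3, and HP SNL arrays 14.8, 11.6 and 7.3. LP sham arrays gave 171.9, 122.2 and 132.5, and LP SNL arrays 42.0, 26.3 and 33.3. Sham signals of the lines overlapped, whereas every LP SNL signal lay above every HP SNL signal. The mean was 129 ± 15.2 after sham surgery and 11.2 ± 3.76 after ligation in HP (ratio 11.5, log2 difference -3.45 ± 0.25), and it was 142 ± 26.2 and 33.9 ± 7.87 in LP (ratio 4.2, -2.05 ± 0.25). All 3 HP SNL signals were at or under the 5th percentile of their arrays, at the 1.8 to 4.6 percentile, and the LP SNL signals stood at the 7.8 to 11.7 percentile. With signals raised to the 10th percentile the differences were -2.11 in HP and -1.82 in LP.

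Plcd4 was near the lowest signals after ligation in both lines as well, and its LP sham arrays differed widely. It gave 306.4, 217.4 and 209.9 on HP sham arrays and 17.9, 9.0 and 15.6 on HP SNL arrays. In LP it gave 167.5, 249.5 and 69.6 after sham surgery and 11.2, 18.7 and 15.8 after ligation. The lowest sham signal, on LP sham array 3, was still 3.72 times the highest LP SNL signal. The mean was 245 ± 53.7 after sham surgery and 14.2 ± 4.62 after ligation in HP (ratio 17.3, log2 difference -4.05 ± 0.42), and it was 162 ± 90.1 and 15.2 ± 3.78 in LP (ratio 10.7, -3.18 ± 0.42). After ligation it stood at the 2.7 to 5.7 percentile in HP and the 2.9 to 5.2 percentile in LP, with 1 and 2 of 3 arrays at or under the 5th. With signals raised to the 10th percentile the differences were -3.01 and -1.94.

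Acp3, the nociceptor phosphatase, had the larger difference in LP. HP sham arrays gave 186.1, 203.5 and 189.0, and HP SNL arrays 17.1, 38.1 and 38.1. LP sham arrays gave 258.8, 219.5 and 231.3, and LP SNL arrays 17.6, 18.9 and 17.4. The LP sham signals all lay above the HP sham signals, and after ligation HP array 1 lay with the LP arrays while HP arrays 2 and 3 lay above them. The mean was 193 ± 9.32 after sham surgery and 31.1 ± 12.1 after ligation in HP (ratio 6.2, log2 difference -2.68 ± 0.25), and it was 237 ± 20.2 and 18.0 ± 0.81 in LP (ratio 13.2, -3.64 ± 0.25). The LP SNL signals stood at the 4.0 to 5.2 percentile and the HP SNL signals at the 5.4 to 13.3 percentile. With signals raised to the 10th percentile the differences were -2.39 and -2.66, and without HP SNL array 1 the HP difference was -2.31.

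Limk1 stayed above the 10th percentile after ligation, though not far above it in LP, and its HP SNL arrays differed widely. It gave 480.2, 442.7 and 475.3 on HP sham arrays and 260.8, 150.3 and 64.5 on HP SNL arrays. In LP it gave 318.5, 523.6 and 376.8 after sham surgery and 47.5, 52.7 and 56.9 after ligation. The LP SNL signals were tightly grouped and all lay below the HP SNL signals. The mean was 466 ± 20.4 after sham surgery and 159 ± 98.4 after ligation in HP (ratio 2.94, log2 difference -1.76 ± 0.40), and it was 406 ± 106 and 52.4 ± 4.71 in LP (ratio 7.76, -2.90 ± 0.40). The SNL signals stood at the 17.3 to 46.2 percentile in HP and the 12.6 to 13.9 percentile in LP, and none was at or under the 10th.

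Ifitm10, as Limk1, stayed above the 10th percentile after ligation. Its probe set is assigned to the gene through an expressed sequence tag in the platform annotation. HP sham arrays gave 681.9, 691.6 and 584.9, and HP SNL arrays 235.8, 51.0 and 116.0. LP sham arrays gave 540.8, 496.2 and 386.5, and LP SNL arrays 62.7, 40.0 and 105.4. The ligated arrays of the lines overlapped, and HP SNL array 1 was the highest of them. The mean was 653 ± 59.0 after sham surgery and 134 ± 93.7 after ligation in HP (ratio 4.86, log2 difference -2.53 ± 0.49), and it was 475 ± 79.4 and 69.4 ± 33.2 in LP (ratio 6.84, -2.85 ± 0.49). The SNL signals stood at the 15.8 to 43.2 percentile in HP and the 11.3 to 20.3 percentile in LP, again with none at or under the 10th.

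**Figure D1:**
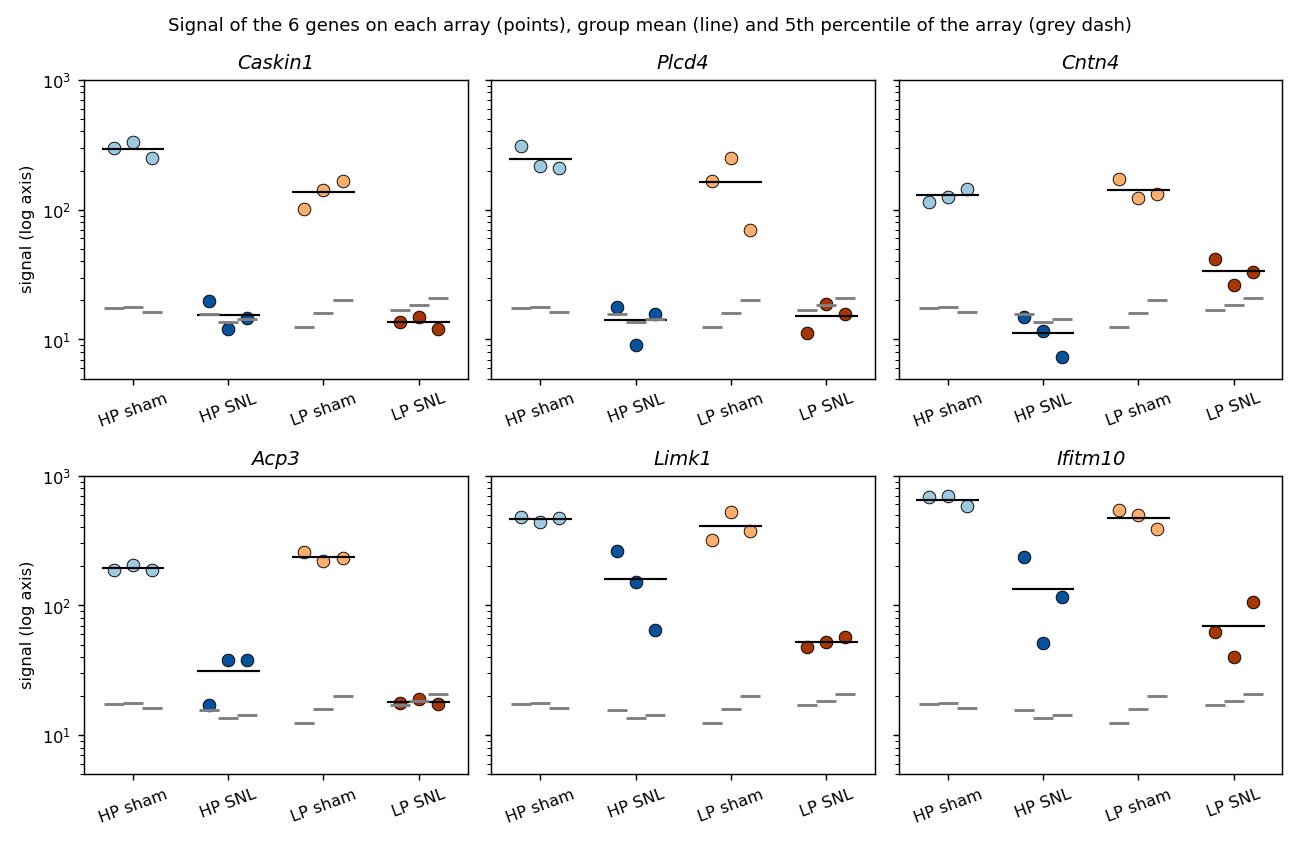
Signal of the 6 genes on each of the 12 arrays (points, log axis), with the group mean (black line) and the 5th percentile of each array (grey dash). Caskin1 and Plcd4 lie at the grey dashes on the ligated arrays of both lines, whereas Limk1 and Ifitm10 stay above them on every array.

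Near loss of signal thus described some of these genes and not others. Caskin1, Plcd4 and Cntn4 were at or under the 10th percentile on every HP SNL array, and Caskin1, Plcd4 and Acp3 on every LP SNL array, that is 3 of 6 genes in each line. Limk1 and Ifitm10 were so on no array. Of the 18 values of the 6 genes on 3 arrays, 10 in HP SNL and 11 in LP SNL were at or under the 10th percentile, 5 and 6 were at or under the 5th, and none was in either sham group. Among all 10411 genes, 17 (0.163%) were above the 10th percentile on every HP sham array and at or under it on every HP SNL array, and 20 (0.192%) in LP. In the opposite direction 20 (0.192%) were low on every HP sham array and above on every HP SNL array, and 22 (0.211%) in LP. With the 5th percentile in place of the 10th, the genes that went low numbered 7 in each line, and with the 20th, 33 in HP and 30 in LP. Only 5 genes (0.048%) were above the 10th percentile on all 6 sham arrays and at or under it on all 6 ligated arrays, and Caskin1 and Plcd4 are 2 of them. Because the 6 genes were chosen for large falls, their places among these few genes follow largely from the choice.

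**Figure D2:**
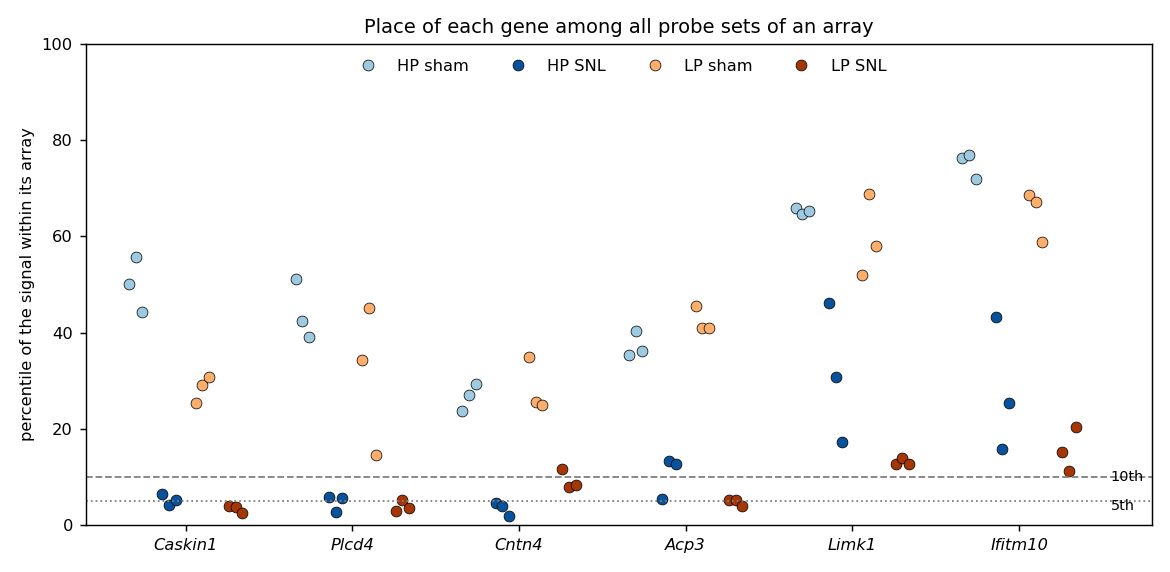
Percentile of each gene's signal among all probe sets of its array, by gene and group (1 point per array), with dashed and dotted lines at the 10th and 5th percentile. After ligation Caskin1 and Plcd4 lie under the 10th percentile on every array of both lines, Cntn4 on every HP array and Acp3 on every LP array, and Limk1 and Ifitm10 on none.

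For all 6 genes the sham and ligated signals did not overlap, in HP and in LP. Over all genes 17.1% were lower without overlap in HP and 14.7% in LP, and by limma with Benjamini-Hochberg adjustment 6.61% and 6.79% were called lower. Since these contrasts chose the genes, the shares are given for scale only. The median log2 difference of the 6 genes was -3.07 in HP and -3.04 in LP, against -0.001 and 0.023 over all genes.

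Caskin1, Plcd4 and Cntn4 had the larger fall in HP, and Acp3, Limk1 and Ifitm10 in LP. The LP difference minus the HP difference on the log2 scale was 0.94 ± 0.30 for Caskin1, 0.87 ± 0.60 for Plcd4 and 1.40 ± 0.35 for Cntn4, where a positive value is a smaller fall in LP. It was -0.96 ± 0.35 for Acp3, -1.14 ± 0.56 for Limk1 and -0.32 ± 0.69 for Ifitm10. With signals raised to the 10th percentile the value was 1.43 for Caskin1, 1.07 for Plcd4, 0.29 for Cntn4 and -0.27 for Acp3, and Limk1 and Ifitm10 were as before. In that setting the signs stayed, but for Cntn4 and Acp3 the gap between lines was much smaller, and its size is uncertain. It is uncertain for Caskin1 and Plcd4 too, which lay near the 5th percentile after ligation in both lines. Their sham signals differed between lines by -1.11 ± 0.21 and -0.75 ± 0.42 (LP minus HP). Whether the lowest signals limited their falls was not tested. With an array left out, Ifitm10 changed sign, to 0.21 without HP SNL array 1 and 0.01 without LP SNL array 2. Plcd4 gave 0.36 without LP sham array 3. These values are descriptions of genes picked for the size of their falls. The limma interaction of line and ligation called 0 of all 10411 genes at an adjusted p of 0.05, with 490 (4.71%) at an unadjusted p of 0.05.

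**Figure D3:**
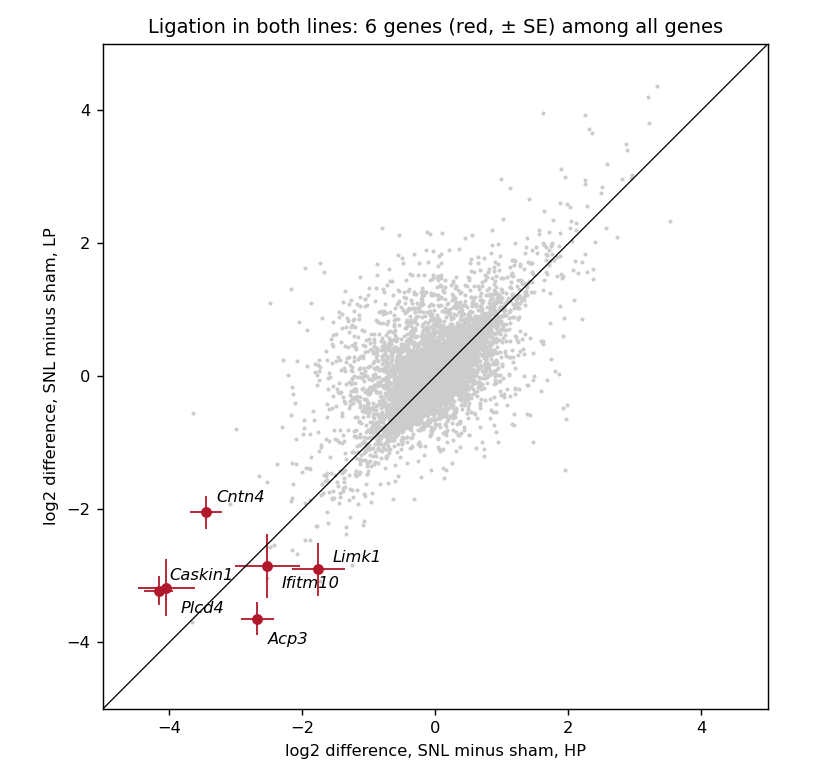
Log2 difference of ligated minus sham ganglia in HP (horizontal axis) and LP (vertical axis) for all 10411 genes (grey) and the 6 genes (red, bars are ± SE), with the line of equal difference. Caskin1, Plcd4 and Cntn4 lie above that line and Acp3, Limk1 and Ifitm10 below it.

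The lines were then compared within each surgery, a contrast that shares its arrays with those that chose the genes. Because genes with a large fall in one line were among those picked, differences between lines were favoured by the choice, and the p-values of the 6 genes here are no independent evidence of them. After sham surgery the signals of 3 of the 6 genes did not overlap between lines, against 15.6% of all genes, and none passed an adjusted p of 0.05 in limma. Caskin1 was lower in LP by a log2 difference of -1.11 ± 0.21, with an unadjusted p of 0.000403 and an adjusted p of 0.163 in limma (0.0732 to 0.405 over the alternatives). Acp3 was higher in LP without overlap at 0.29 ± 0.25 (limma adjusted p = 0.755, and 0.599 with only the sham arrays fitted). Its SD of log2 signals was 0.07 in HP sham and 0.12 in LP sham, against 0.64 in HP SNL. Ifitm10 was lower in LP without overlap at -0.47 ± 0.49 (limma adjusted p = 0.802). Plcd4, Limk1 and Cntn4 overlapped, at -0.75 ± 0.42, -0.23 ± 0.40 and 0.13 ± 0.25 (limma adjusted p = 0.622, 0.895 and 0.906). Over all genes 1 (0.00961%) passed after sham surgery.

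After ligation Cntn4 and Limk1 did not overlap between lines, 2 of 6 genes, against 17.4% of all genes. Cntn4 was higher in LP, with a mean of 33.9 against 11.2 and a log2 difference of 1.54 ± 0.25, and did not pass the threshold (limma unadjusted p = 9.5e-05, adjusted p = 0.0516, 0.0366 to 0.355 over the alternatives). It passed with signals raised to the 5th percentile (1.14, adjusted p = 0.0461), with array weights (1.56, 0.0366) and without HP SNL array 1 (1.74, 0.0452). With signals raised to the 10th percentile the difference was 0.42 (limma adjusted p = 0.355). Limk1 was lower in LP at -1.37 ± 0.40 (limma adjusted p = 0.275, 0.044 to 0.53 over the alternatives), and passed only without HP SNL array 3 (-1.90, 0.044). Acp3 overlapped, at -0.67 ± 0.25 (limma adjusted p = 0.374, 0.014 to 0.967 over the alternatives), and passed only without HP SNL array 1 (-1.04, 0.014). Caskin1, Plcd4 and Ifitm10 overlapped as well, at -0.17 ± 0.21, 0.12 ± 0.42 and -0.79 ± 0.49 (limma adjusted p = 0.831, 0.951 and 0.612). Caskin1 and Plcd4 lay near the 5th percentile in both lines, and whether a difference between lines could be seen there was not tested. Over all genes 18 (0.173%) passed after ligation.

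The genes whose pattern over the 12 arrays was most like each of the 6 were found by the root mean square difference of log2 signals centred on each gene's mean. Since these arrays hold the falls that chose the 6, a similar fall, or the same line with the larger fall, follows largely from the search. Nearest to Caskin1 were the serotonin receptor gene Htr1d (0.49 log2 units), Plcd4 (0.55) and Acp3 (0.74). Nearest to Plcd4 were Caskin1 and Htr1d (both 0.55) and Kcns1, a modulatory potassium channel subunit (0.71). Kcns1 (0.60), the inhibin beta B gene Inhbb (0.69) and Htr1d (0.75) were nearest to Cntn4. Htr1d had similar falls in the lines, -3.66 ± 0.16 in HP and -3.69 ± 0.16 in LP, and Kcns1, as Cntn4, the larger in HP, -3.09 ± 0.32 and -1.93 ± 0.32. Nearest to Acp3 were Htr1d (0.49), the nicotinic receptor subunit gene Chrna3 and the nociceptor sodium channel gene Scn11a (both 0.60). Limk1 was nearest to Scn11a (0.43), the neuronal pentraxin gene Nptx1 (0.49) and the neuritin gene Nrn1 (0.52), and Scn11a had, as Limk1, the larger fall in LP (-1.74 ± 0.21 in HP and -3.08 ± 0.21 in LP). Ifitm10 was nearest to the chromogranin gene Chga (0.45), the glucuronyltransferase gene B3gat2 (0.47) and Nptx1 (0.49). Among the 6 genes themselves the distance ran from 0.55 between Caskin1 and Plcd4 to 1.12 between Cntn4 and Limk1. With the mean absolute difference in place of the root mean square, all 3 nearest genes were the same for Caskin1, Plcd4, Acp3 and Ifitm10, 2 for Cntn4 and 1 for Limk1.

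Paralogs and pathway partners of the 6 genes moved in both directions. Of 174 such genes in 6 lists, 136 were measured, and by limma 17 were lower and 15 higher in HP (12.5% and 11%, against 6.61% and 7.02% of all genes). In LP 19 were lower and 14 higher (14% and 10.3%, against 6.79% and 7.66%), and 14 were lower in both lines. Their median log2 difference was -0.10 in HP and -0.06 in LP. Adjusted p-values in what follows are limma's with Benjamini-Hochberg adjustment over all genes, with the HP value before the LP value.

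Among 27 measured partners of Caskin1 and the neurexin complex, 4 fell and 1 rose in HP, and 5 fell and none rose in LP. Lin7b, which binds CASK in the same complex, fell, with log2 differences of -1.51 ± 0.19 and -1.49 ± 0.19 (adjusted p = 0.000863 and 0.000752). The Mint1 gene Apba1, whose product competes with Caskin1 for CASK, had -1.02 ± 0.16 and -1.29 ± 0.16 (adjusted p = 0.00323 and 0.000728), but its LP difference was -0.77 (adjusted p = 0.0734) as a mean of its probe sets. Epb41, encoding protein 4.1, had -1.01 ± 0.09 and -1.04 ± 0.09 (adjusted p = 0.000184 and 0.000116), and its other probe set had 0.05 and -0.04. The postsynaptic scaffold gene Dlg4 had -0.14 ± 0.09 and -0.41 ± 0.09 (adjusted p = 0.367 and 0.0106), with the LP call lost as a mean of probe sets (0.0687) and when LP arrays were fitted alone (0.0683). Caskin2, the paralog, was not analysed here.

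Among 22 contactins and partners, 4 fell and 1 rose in HP, and 5 fell and 1 rose in LP. The contactin-associated protein genes Cntnap1 and Cntnap2, of the paranode and the juxtaparanode of myelinated axons, fell, with -1.17 ± 0.15 and -1.17 ± 0.13 in HP (adjusted p = 0.000989 and 0.000588) and -1.91 ± 0.15 and -1.05 ± 0.13 in LP (7.91e-05 and 0.000785). Tnc, encoding the matrix protein tenascin C, rose by 0.95 ± 0.19 and 1.61 ± 0.19 (adjusted p = 0.01 and 0.000537), with the HP call lost when the actin ratio was a covariate (0.59, 0.0546). The growth factor gene Nrg1 had -0.82 ± 0.12 and -0.48 ± 0.12 (adjusted p = 0.00201 and 0.0245). The LP call of Nrg1 was lost in 7 alternatives, among them without LP sham arrays 1 and 2 and LP SNL arrays 1 and 2 (adjusted p 0.051 to 0.0921), and its 8 probe sets differed, from -1.38 to 0.27 in LP. None of the paralogs Cntn1, Cntn2, Cntn3, Cntn5 and Cntn6 passed in either line, with HP differences of -0.42 to 0.17. Of these Cntn2 had the largest LP signal difference relative to its error, -0.91 ± 0.29 (adjusted p = 0.0645, 0.0353 to 0.182 over the alternatives). It passed after quantile normalization (-1.03, 0.0353), median centring (-0.96, 0.0466), with a pseudocount of 32 (-0.74, 0.0466) and without LP SNL array 3 (-1.15, 0.0388).

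Among 28 genes of phospholipase C and phosphoinositide signalling, 3 fell and 2 rose in HP, and 4 fell and 2 rose in LP. The diacylglycerol kinase genes Dgkh and Dgkz, which clear the messenger that phospholipase C makes, fell, with -1.36 ± 0.13 and -1.07 ± 0.18 in HP (adjusted p = 0.000277 and 0.00406) and -1.66 ± 0.13 and -1.77 ± 0.18 in LP (7.91e-05 and 0.000201). Pip5k1c, whose kinase makes the phosphoinositide substrate, had -0.11 ± 0.10 and -0.66 ± 0.10 (adjusted p = 0.545 and 0.00194). Against the direction of Plcd4, the paralog Plcd1 rose, by 0.48 ± 0.12 and 0.60 ± 0.12 (adjusted p = 0.0243 and 0.00728). Its HP call was lost in 8 alternatives, including without each HP sham array and without HP SNL arrays 2 and 3 (adjusted p 0.0537 to 0.0894). The paralog Plcd3 had -0.27 ± 0.23 and 0.48 ± 0.23 (adjusted p = 0.513 and 0.219).

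Among 26 acid phosphatases and genes of adenosine signalling, 4 rose and 2 fell in each line. The purine nucleoside phosphorylase gene Pnp rose by 0.91 ± 0.11 and 0.73 ± 0.11 (adjusted p = 0.000785 and 0.00195), and Entpd2, an ectoenzyme that hydrolyses ATP, by 0.75 ± 0.13 and 0.91 ± 0.13 (0.00406 and 0.00121). Adk, encoding the kinase that removes adenosine, fell, with -0.68 ± 0.10 and -0.83 ± 0.10 (adjusted p = 0.00153 and 0.000414). The adenosine A1 receptor gene Adora1 had -0.64 ± 0.14 and -0.69 ± 0.14 (adjusted p = 0.014 and 0.0086). Its other probe set had 0.34 and -0.41, and the HP call was lost as a mean of probe sets (-0.15, adjusted p = 0.441), with the actin covariate (-0.46, 0.102) and without HP sham arrays 1 and 3 and HP SNL array 3 (0.0501, 0.057 and 0.055). With only LP arrays in the limma fit the LP adjusted p of Adora1 was 0.0595. The paralogs Acp2 and Acp5 did not pass, at -0.01 ± 0.17 and 0.56 ± 0.30 in HP and -0.04 ± 0.17 and -0.06 ± 0.30 in LP.

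Among 26 genes of the LIM kinase and cofilin pathway, 4 rose in each line, and 2 fell in HP and 1 in LP. The paralog Limk2 had 0.64 ± 0.14 and 0.42 ± 0.14 (adjusted p = 0.013 and 0.0696), opposite to the direction of Limk1. Its HP call was lost with the actin covariate (0.66, 0.0556), and in LP it passed after quantile normalization (0.0465), without the dimmest 25% of genes (0.0423) and with trended variance (0.0372). The actin monomer binder Pfn1 had 0.76 ± 0.13 and 0.59 ± 0.13 (adjusted p = 0.00388 and 0.0116, and 0.0694 with only LP arrays fitted). Wdr1, a cofactor of cofilin, had 0.55 ± 0.11 and 0.41 ± 0.11 (adjusted p = 0.00871 and 0.0286). Its LP call was lost in 8 alternatives, including without LP sham arrays 1 and 3 and LP SNL arrays 1 and 3 (adjusted p 0.0787 to 0.107), and its HP call with the actin covariate (0.053).

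Among 7 dispanins, the wider family of Ifitm10, 3 rose and 2 fell in each line. The interferon-induced genes Ifitm1, Ifitm2 and Ifitm3 rose, by 0.76 ± 0.13, 0.62 ± 0.10 and 0.83 ± 0.08 in HP (adjusted p = 0.00374, 0.00287 and 0.000377) and by 0.61 ± 0.13, 0.57 ± 0.10 and 0.92 ± 0.08 in LP (0.00968, 0.00389 and 0.000148). Tmem233 and Trarg1 fell, with -1.43 ± 0.14 and -0.93 ± 0.14 in HP (adjusted p = 0.000277 and 0.00269) and -1.76 ± 0.14 and -0.83 ± 0.14 in LP (7.91e-05 and 0.00399). Ifitm1, Ifitm2 and Ifitm3 are close in sequence, and cross-hybridisation between them was not tested.

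**Figure D4:**
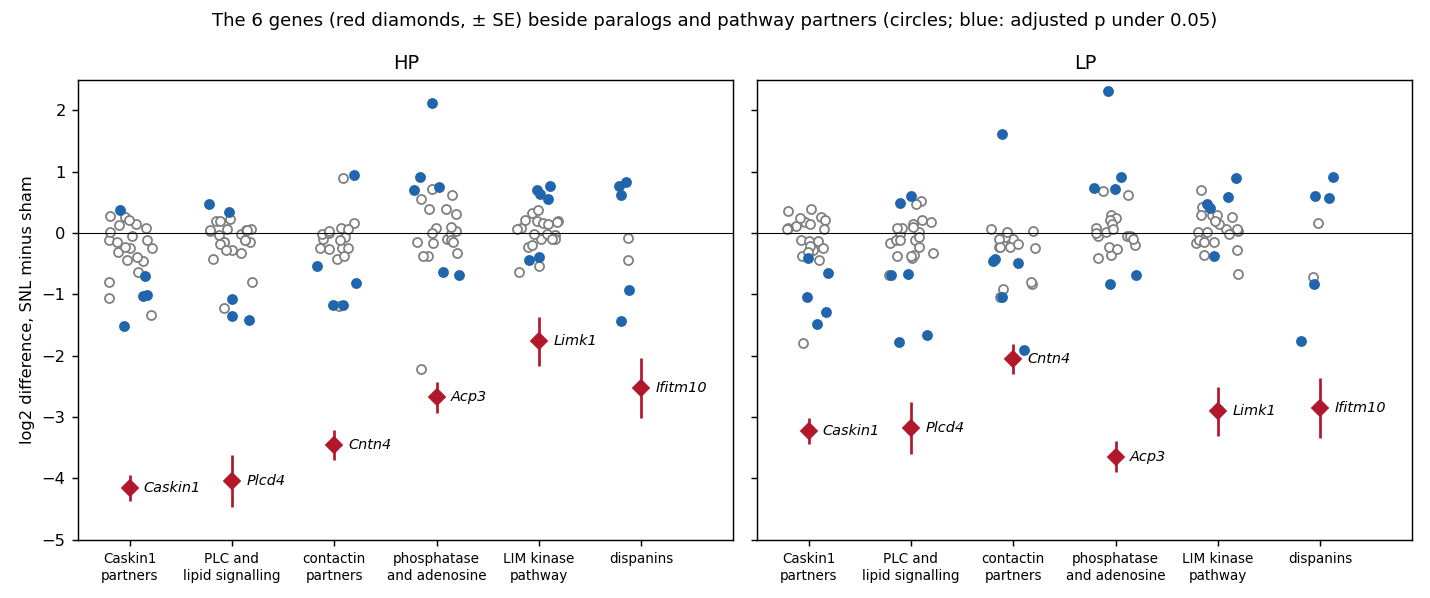
Log2 difference of ligated minus sham ganglia in HP (left) and LP (right) for the 6 genes (red diamonds, ± SE) beside the measured genes of their lists (circles, filled blue where the limma adjusted p was under 0.05). Plcd1 and Ifitm1, Ifitm2 and Ifitm3 lie above 0 while Plcd4 and Ifitm10 lie below it.

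Marker genes of the cells in a ganglion also differed with surgery. Of 18 sensory neuron markers 6 fell in HP and 7 in LP by limma, none rose, and the median log2 differences were -0.28 and -0.38. Their summed signal was 78638 to 83290 in HP sham and 67489 to 73187 in HP SNL, and 76584 to 82046 and 62456 to 68418 in LP. Among them the neuronal genes Tubb3 and Uchl1 had -0.11 ± 0.13 and -0.02 ± 0.10 in HP and -0.18 ± 0.13 and -0.07 ± 0.10 in LP, without a call, whereas Rbfox3 had -1.05 ± 0.23 and -1.26 ± 0.23 (limma adjusted p = 0.014 and 0.00503) and Isl2 -1.79 ± 0.17 and -2.25 ± 0.17 (0.000277 and 7.2e-05). Of 9 genes listed as markers of non-peptidergic nociceptors, the cells known for Acp3, 5 fell in HP and 7 in LP (medians -0.48 and -0.69). Not all 9 genes, Scn10a among them, are limited to these cells. The sodium channel gene Scn10a had -1.30 ± 0.08 and -1.86 ± 0.08 (limma adjusted p = 3.69e-05 and 3.4e-06), whereas P2rx3 had 0.03 ± 0.11 and -0.15 ± 0.11, without a call. Of 11 macrophage markers 9 rose in each line (medians 1.08 and 1.21), with a summed signal of 6537 to 7876 in HP sham, 14318 to 15849 in HP SNL, 5865 to 6388 in LP sham and 12896 to 15078 in LP SNL. Of 12 glial markers 3 rose in each line, and of 10 skeletal muscle markers 3 fell in HP and none in LP. No measured marker had a group mean of 0. The part of these markers in the falls of the 6 genes was not tested.

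The ratio of the 3' to the 5' actin probe set, a sign of RNA integrity, was 1.483 to 1.847 in HP sham and 1.118 to 1.342 in HP SNL, without overlap, and 0.993 to 1.877 in LP sham and 1.113 to 1.125 in LP SNL. With this ratio as a covariate the HP differences were -4.52 for Caskin1, -3.76 for Plcd4, -3.19 for Cntn4, -2.62 for Acp3, -1.78 for Limk1 and -2.48 for Ifitm10. In LP they were -3.38, -3.05, -1.93, -3.62, -2.91 and -2.83 in the same order. Correlations of log2 signals lay between 0.944 and 0.969 within groups and between 0.921 and 0.965 across groups.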

How the data were processed

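Affymetrix arrays measured total RNA of L4/L5 ganglia in 4 groups of 3, taken from the sample titles. The labels' protocols name a Qiagen RNeasy kit and biotin label. Each deposited value is the intensity of 1 probe set, linear, between 0 and 13930.7. Per the submitters' processing notes RMA was the tool named, without a version. RMA output is usually on a log2 scale, and every array had a trimmed mean of 499.7 to 499.9, so which scaling and background steps the authors ran is unknown. Other steps were not given in the sources used here.

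A pseudocount of 1 was added before log2, because 109 of 191076 values lay below 1, 3 of them at 0, and the arrays were not normalized again. Names came from the platform annotation and were updated by a RefSeq table of GRCr8 (12748 by gene identifier, 2 by accession, 33 kept). In all, 12783 had 1 symbol, 312 several and 2771 none, apart from 57 controls, and each of 10411 genes was read by its brightest probe set. All 12 arrays entered 1 limma fit of the 4 group means (limma 3.58.1, statmod 1.5.0, R 4.3.3; 8 residual and 2.05 prior degrees of freedom). Two-sided p-values were adjusted by the Benjamini-Hochberg method over every gene fitted, at a threshold of 0.05. The fit was also run on simulated normal values with the same spread in all groups and no lowest signal. That run cannot show how the fit behaves near the lowest signals or with unequal spreads.

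The 6 genes, the lists and the markers were chosen with earlier results of these data known. Named genes are the 6, up to 4 genes with the smallest p of each related list, the closest paralogs, and the 3 genes most like each of the 6. A gene that this rule names in the LIM kinase list is not reported here. The same replicate numbers occur in all groups, but same-numbered arrays did not deviate together: r was -0.158 to 0.098 over 18 pairs, 0 of them above 0.1. Alternatives covered the pseudocount, scaling, low values, dim genes, variance, array weights, a replicate block, probe set choice, the actin ratio, the arrays in the fit and each array left out.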

Additional observations from a re-analysis of the deposited data

How the results depend on the processing

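In the alternatives that gave a value, every one of the 6 genes kept a negative difference between ligated and sham ganglia in both lines. What moved was the size: the median of the 6 was -2.38, -2.05 and -2.46 in HP and -2.48, -2.14 and -2.30 in LP with pseudocounts of 16 and 32 and with signals raised to the 10th percentile. Leaving out each array in turn gave -3.36 to -3.03 in HP and -3.18 to -2.79 in LP. The number of the 6 past the threshold between lines after ligation, 0, became 1 with signals raised to the 5th percentile and 1 with array weights, and was 0 to 2 with an array left out. After sham surgery it was 0 to 0. Leaving out the dimmest 25% of genes removed all of the 6 but Limk1 and Ifitm10, which limits what signal over background can show for the others.

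The count of all genes called in HP was 816 with the actin covariate and 846 to 1489 with an array left out, the counts without HP sham 1, HP sham 3, HP SNL 2 and HP SNL 3 being 846, 866, 945 and 875. In LP it was 814 in a fit of only the arrays compared and 1028 to 1451 with an array left out. The 1 gene between lines after sham became 2 (pseudocount 32), 0 (quantile normalization, median centring, the mean of probe sets, only the arrays compared), 5 (without the dimmest genes), 6 (trended variance), 3 (actin ratio), 2 (every probe set) and 0 to 3 with an array left out. The 18 after ligation became 29 (pseudocount 32), 39 (without the dimmest genes), 52 (trended variance), 34 (array weights), 11 (mean of probe sets), 9 (actin ratio), 4 (only the arrays compared) and 1 to 26 with an array left out. Of the arrays, 8 moved that count by over 1.5 times: 6, 1 and 8 were left without HP sham 1, 2 and 3, 3 and 10 without HP SNL 2 and 3, and 1, 2 and 2 without LP SNL 1, 2 and 3. The interaction, 0, became 1 with the actin ratio and 0 to 2 with an array left out, and was not run with only the arrays compared. Related genes called lower were 11 in LP with only the arrays compared, and 14 to 18 in HP and 14 to 20 in LP with an array left out. The cause was not tested, except that a fit of only the arrays compared, or with an array left out, holds fewer arrays.

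With the replicate number as a block the counts were 1115 in HP, 1251 in LP, 0 and 7 between lines after sham and after ligation, and 0 for the interaction. The numbers are not taken to pair the arrays.

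Some uncalled differences changed sign. Between lines after ligation Caskin1 was 0.22 and 0.32 with signals raised to the 5th and 10th percentile and -0.32 to 0.01 with an array left out, Acp3 was 0.02 with the 10th, and Plcd4 was -0.16 after quantile normalization and -0.15 to 0.31 with an array left out. Cntn4 after sham was -0.01 to 0.23 with an array left out. The LP difference minus the HP difference of Ifitm10, described without a test, was -0.88 without HP SNL array 2 and 0.21 without HP SNL array 1. Among the paralogs, Cntn5 in HP was 0.08 after quantile normalization, 0.05 with array weights and -0.38 to 0.29 with an array left out, and Cntn6 in HP 0.04 and Acp5 in LP 0.06 with the actin ratio. Acp5 in LP was 0.04 with array weights. With an array left out Acp5 was -0.25 to 0.28 in LP, Cntn3 -0.46 to 0.23 in HP and -0.21 to 0.01 in LP, and Acp2 -0.16 to 0.11 in HP and -0.20 to 0.04 in LP.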

Other observations

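Besides Caskin1 and Plcd4, the genes above the 10th percentile on all 6 sham arrays and at or under it on all 6 ligated arrays were Cdk5r2, Lnx1 and Ccdc141, named here after their values were seen. Cdk5r2, which encodes an activator of the neuronal kinase Cdk5, had a mean signal of 80.6 ± 12.0 in HP sham and 21.1 ± 4.89 in HP SNL, and 52.9 ± 21.2 and 18.6 ± 3.36 in LP. Lnx1, encoding a ubiquitin ligase that binds Numb, had 80.1 ± 30.2 and 13.7 ± 3.19 in HP, and 58.2 ± 31.1 and 8.77 ± 4.89 in LP. Ccdc141 had 42.8 ± 5.97 and 15.3 ± 6.31 in HP, and 75.1 ± 26.3 and 24.3 ± 8.43 in LP.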
